A study of Ecsenius pulcher with 24 samples.

Results

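Tail muscle of *Ecsenius pulcher*, a small blenny of coral reefs, was compared between fish sampled while oxygen was low and control fish sampled at the same time. The comparison rests on 12 of the 24 libraries of the series, 6 acute hypoxic and 6 acute control, chosen by the time point and group in the sample titles. The other 12 libraries come from the later, post-hypoxia time point: 6 exposed fish sampled after reoxygenation and their 6 time-matched controls. Each library was made from polyadenylated RNA of a cross section of the front of the tail of a single fish, with the skin removed. Acute hypoxic fish met an oxygen profile modelled on nearby reefs; acute controls were the time-matched fish kept without it. The sources used here do not give oxygen levels, exposure times, ages or sexes.

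Low oxygen limits the respiration by which muscle makes most of its ATP, and fish white muscle is known for its capacity to make ATP by glycolysis instead. In vertebrates, fishes among them, hypoxia-inducible factors are stabilised when oxygen is scarce and raise the transcription of genes for glycolysis, oxygen supply and the control of growth. Which of these genes stand behind the values given here cannot be read from the deposited table, because its rows carry the IDs of a transcript assembly and are not paired with gene names. A feature below is an assembly gene, that is, a cluster of transcripts assembled from the reads. Marker genes of muscle or of other cell types cannot be looked up for the same reason, and a whole cross section can hold more than muscle fibres. In such bulk samples, fewer cells of a type and less RNA per cell cannot be told apart.

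Library totals were 35440328 to 42235816 estimated counts in hypoxic fish and 31558433 to 43603403 in controls. Of 518956 features in the table, 57675 had enough counts to be tested, and these took 99.01% to 99.54% of the counts of each fish. The 10 most abundant features held 19.7% ± 6.19 of counts in hypoxic fish and 23.3% ± 5.84 in controls (SD, n = 6; exact two-sided permutation p 0.327). The difference of -3.57 percentage points was -1.77 without hypoxic replicate 1 and -2.05 without control replicate 6. Hypoxic fish had 140034 ± 10919 features with at least 1 count and controls 129444 ± 15322 (exact permutation p 0.197, n = 6). That difference of 10590 was 5938 without control replicate 4 and 6995 without hypoxic replicate 3. Hypoxic replicate 1 stood apart in several measures given below, and values without it are given beside the results that it moved most.

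During hypoxia 0 of 57675 features passed an adjusted p of 0.05 with the quasi-likelihood test of edgeR, in either direction (smallest adjusted p 0.159 among features higher in hypoxic fish and 0.172 among features lower). At an unadjusted p under 0.05, 2027 features (3.51%) were higher in hypoxic fish and 1854 (3.21%) lower, together 3881 or 6.73% of those tested. Without hypoxic replicate 1, edgeR called 110 features (0.186%), of which 100 were higher (0.17%) and 10 lower (0.017%). Leaving out any other fish gave 0 calls. DESeq2 called 194 features in the 12 libraries (0.336%), 155 of them higher (0.269%) and 39 lower (0.0676%). It left some features of low mean count without an adjusted p, so it adjusted over fewer than the 57675 on which these percentages are based. The limma voom test called 34 (0.059%), with 32 higher (0.0555%) and 2 lower (0.00347%). It weighted each fish by how closely its expression values followed the fit, not by a separate measure of quality. The weight voom gave to hypoxic replicate 1 was 0.295, against 0.823 to 1.78 for the other 11 fish. When the post libraries were added to estimate the spread, edgeR called 14 features (0.0213% of 65664), all higher. An unadjusted p under 0.05 was found for 7.92% of features with DESeq2, 10.4% with voom, 11.1% with edgeR without hypoxic replicate 1 and 3.6% with all 24 libraries.

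These fits named overlapping features. All 34 voom calls and all 14 calls of the fit to 24 libraries were among the 194 of DESeq2, of which they made up 17.5% and 7.22%. The fit without hypoxic replicate 1 shared 78 calls with DESeq2, 70.9% of its own and 40.2% of those of DESeq2, and 33 with voom, 30% of its own and 97.1% of those of voom. In all 4 of these fits 7 features were called, and 226 in at least 1. Since the fits share fish, the overlap is not independent support. All 194 DESeq2 calls had the same direction in the edgeR fit to the 12 libraries and an unadjusted p under 0.05 there.

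Most estimated changes were smaller than 2-fold in either direction. The log2 fold change, hypoxic minus control, had a median of 0.0064 over the tested features, and its 1st and 99th percentiles were -1.04 and 1.23 (standard error 0.30 at the median). For 34046 features, or 59%, the whole 95% interval of the edgeR estimate lay within a 2-fold change in either direction. A change beyond 1 log2 unit was estimated for 1109 features upward and 674 downward, 3.09% of those tested. The split between directions depended on scaling: at an unadjusted p under 0.05, 52.2% of features were higher with TMM (trimmed mean of M-values) factors and 90.9% when libraries were scaled by their totals alone. Scaling by totals also moved the median log2 fold change of all features to 0.22, and 33 features then passed, all higher.

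**Figure D1:**
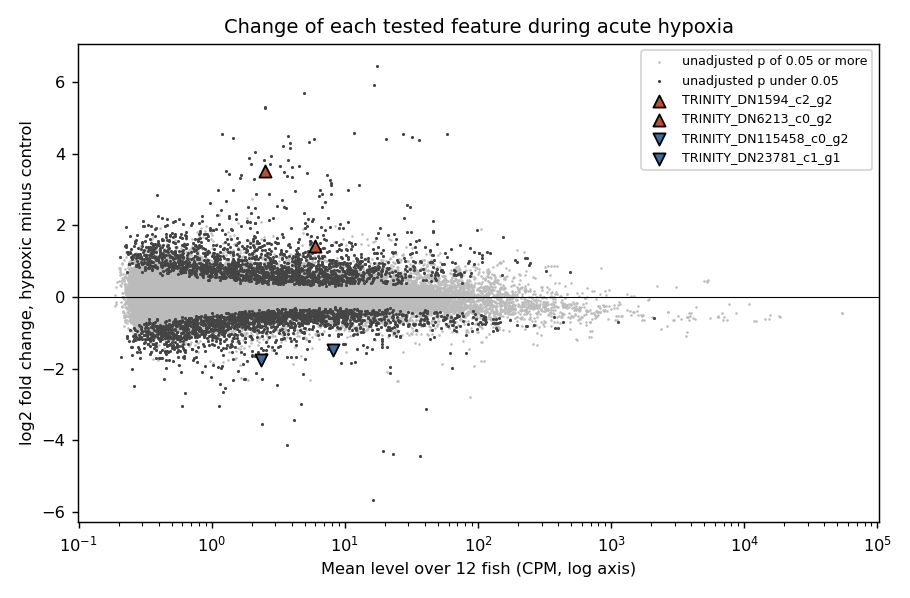
Each point is 1 of 57675 tested features. The x axis is its mean level over the 12 fish in CPM (counts scaled to library size, log axis) and the y axis its log2 fold change, hypoxic minus control; dark points have an unadjusted edgeR p under 0.05 and the 4 triangles are the named features. Most points lie within 1 log2 unit of 0. The median absolute change was 0.32 log2 units under 1 CPM, 0.21 at 1 to 10, 0.19 at 10 to 100 and 0.31 over 100 CPM.

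The precision of these estimates followed the level of the feature, taken as CPM without scaling for length, which the table does not give. Among the 17670 features under 1 CPM the median standard error was 0.41 log2 units, and 27.8% had an interval within 2-fold. In the 29829 features of 1 to 10 CPM it was 0.25 and 72.6%, and in the 9177 of 10 to 100 CPM 0.23 and 75.7%. The 999 features over 100 CPM were less settled again, with a median standard error of 0.30 and 52.5% within 2-fold. An unadjusted p under 0.05 was found for 5.11% of this most abundant class, 17 features higher and 34 lower, against 6.73% of all features.

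The most abundant class stood lower in hypoxic fish as a whole with TMM, DESeq2 or upper-quartile factors, but not with library totals alone. Of the 999 features over 100 CPM, 71.3% had a lower estimate in hypoxic fish, with a median log2 fold change of -0.23; the medians of the other classes were 0.0036 to 0.027. By fish, the median deviation of this class from the control mean was -0.39 to -0.023 log2 units in hypoxic fish and -0.21 to 0.28 in controls, so the groups overlapped. Without hypoxic replicate 1 the median log2 fold change of the class was -0.31, but the other classes also moved downward. Their medians were then -0.11 for 10 to 100 CPM, -0.042 for 1 to 10 CPM and 0.012 for under 1 CPM. With library totals alone the median of the class over 100 CPM was 0.008, since that scaling moved all classes upward by about the same amount. The mean share of the 10 most abundant features, given above, was also lower in hypoxic fish, by less than the spread between fish, and its part in this difference was not tested.

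The 2 features with the smallest p among those higher in hypoxic fish were TRINITY_DN1594_c2_g2 and TRINITY_DN6213_c0_g2. TRINITY_DN1594_c2_g2 ranged from 1.87 through a median of 3.23 to 4.73 CPM in controls and from 7.34 through 8.06 to 12.3 CPM in hypoxic fish. All 6 hypoxic fish lay above all 6 controls, and hypoxic replicate 1, at 7.83 CPM, was among its group. The means were 3.25 ± 0.911 CPM and 8.70 ± 1.80 CPM (SD, n = 6), a log2 fold change of 1.42 (SE 0.21, 95% interval 0.97 to 1.87), and the adjusted p was 0.159 with edgeR over all features. It was 1.05e-06 with DESeq2, 0.0295 with voom and 0.0141 with edgeR without hypoxic replicate 1, but 0.138 with edgeR on all 24 libraries.

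TRINITY_DN6213_c0_g2 was near the lower limit of what was tested in controls, with 8 to 23 counts per control fish and 82 in all. Its level ran from 0.216 through a median of 0.348 to 0.8295 CPM in controls, and from 1.31 through 3.93 to 9.96 CPM in hypoxic fish. The groups did not overlap, but hypoxic fish differed among themselves several-fold: replicates 1 and 2 stood at 1.32 and 1.31 CPM, close above the controls, and replicate 4 at 9.96. The log2 fold change was 3.51 (SE 0.53, 95% interval 2.37 to 4.66; edgeR adjusted p 0.159), on means of 0.407 ± 0.218 and 4.65 ± 3.46 CPM (SD, n = 6). DESeq2 gave an adjusted p of 1.10e-07 and voom 0.101; edgeR gave 0.00912 without hypoxic replicate 1 and 0.0487 on all 24 libraries.

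The 2 features with the smallest p among those lower in hypoxic fish were TRINITY_DN115458_c0_g2 and TRINITY_DN23781_c1_g1. TRINITY_DN115458_c0_g2 ran from 1.48 through a median of 3.67 to 5.92 CPM in controls and from 0.764 through 1.01 to 1.81 CPM in hypoxic fish. The groups overlapped only in that hypoxic replicate 1, at 1.81 CPM, lay above control replicate 6, at 1.48. The log2 fold change was -1.75 (SE 0.31, 95% interval -2.41 to -1.09; edgeR adjusted p 0.172), on means of 3.62 ± 1.47 and 1.07 ± 0.382 CPM (SD, n = 6). Its adjusted p was 0.000187 with DESeq2, 0.0501 with voom and 0.0156 with edgeR without hypoxic replicate 1, but 0.817 with edgeR on all 24 libraries.

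TRINITY_DN23781_c1_g1 ran from 6.55 through a median of 11.8 to 18.1 CPM in controls and from 2.76 through 3.91 to 7.26 CPM in hypoxic fish. Here the overlap came from hypoxic replicate 2, at 7.26 CPM, and control replicate 5, at 6.55, while hypoxic replicate 1 lay below all controls at 4.94. The log2 fold change was -1.47 (SE 0.28, 95% interval -2.07 to -0.87; edgeR adjusted p 0.195), on means of 11.9 ± 3.84 and 4.27 ± 1.72 CPM (SD, n = 6). It passed with DESeq2 (adjusted p 0.00174) and voom (0.0473), but not with edgeR, either without hypoxic replicate 1 (0.0648) or on all 24 libraries (0.817).

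**Figure D2:**
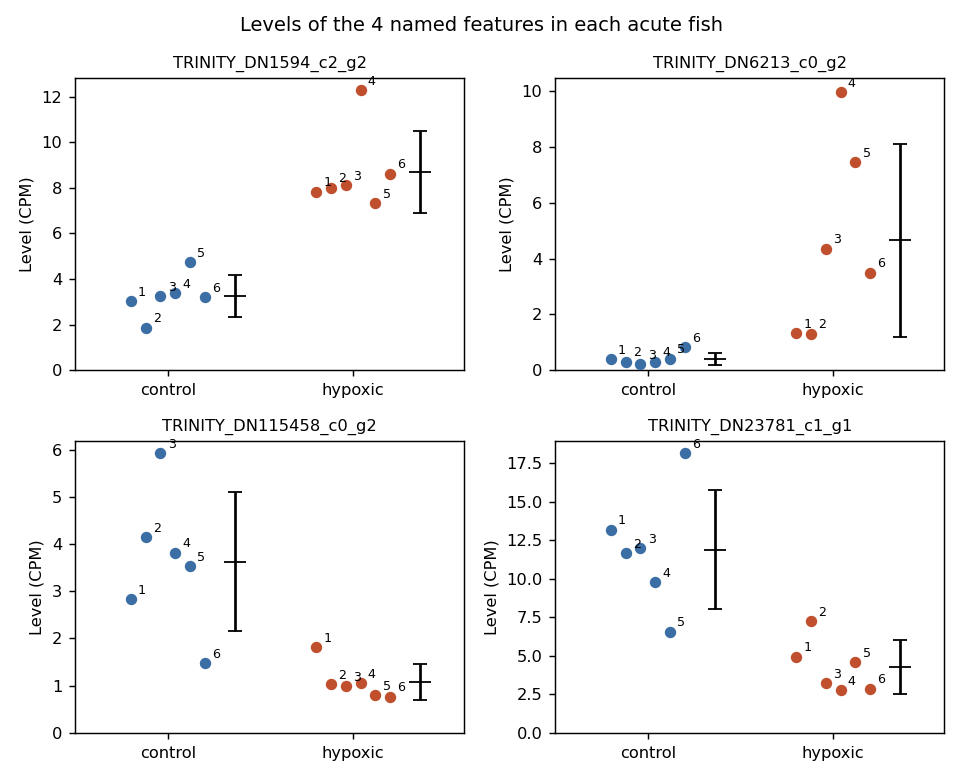
Level in CPM of the 4 named features in every acute fish (y axes from 0), with the replicate number beside each point; bars are mean ± SD of 6 fish. For both higher features all hypoxic fish lie above all controls, and for both lower features a single hypoxic fish lies within the control range.

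At the later time point, TRINITY_DN6213_c0_g2 ranged from 0.212 to 1.20 CPM in post controls and from 0.2195 to 2.64 CPM in post hypoxic fish, on the scale of all 24 libraries. TRINITY_DN1594_c2_g2 ranged from 5.36 through a median of 7.42 to 21.8 CPM in post controls. In post hypoxic fish it ranged from 4.55 through 11.07 to 14.3 CPM. Every post control thus lay above 4.73 CPM, the highest acute control on the scale of the 12 libraries. Both lower features had post medians below the lowest acute control in both post groups: 0.290 and 0.289 CPM for TRINITY_DN115458_c0_g2, and 1.65 and 2.22 CPM for TRINITY_DN23781_c1_g1, in controls and hypoxic fish. Time point and series of libraries cannot be told apart, and no test was made on these values.

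The 20 features of smallest p in each direction show how the fish varied among themselves. They were ranked on this contrast, so their values are a description. The 20 higher ones belonged to 19 assembly components (larger groups of linked transcripts), with fold changes of 2.20 to 23.5 and a median of 4.79. The 20 lower ones also belonged to 19 components, with fold changes of 1.71 to 8.23 and a median of 2.56. Both lists hold features at very low levels in 1 group. The lowest means were 0.234 CPM in controls (higher feature of rank 11) and 0.0966 CPM in hypoxic fish (lower feature of rank 14). Fold changes are therefore not compared between the directions. In all 20 higher features hypoxic replicates 2 to 6 lay above every control. Hypoxic replicate 1 did so in 12 of them, and did not in the other 8.

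These features were ranked by a p that hypoxic replicate 1 enters, so the size of change is not compared between those it shared and the rest. In the 12 that it shared, the fold change was 2.20 to 11.4, and its own deviation from the control mean was 0.66 to 1.95 log2 units. In the other 8 the fold change was 3.00 to 23.5, and its deviation was -0.35 to 1.04 log2 units. An example is the higher feature of rank 20: controls lay between 0.833 and 13.1 CPM, hypoxic replicates 2 to 6 between 72.7 and 201.6, and hypoxic replicate 1 at 4.39. Hypoxic replicate 4 had the highest value of its group in 15 of the 20 higher features. For the 20 lower features no single hypoxic fish led: each was the lowest in 2 to 5 of them, and each lay below every control in 14 to 17.

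**Figure D3:**
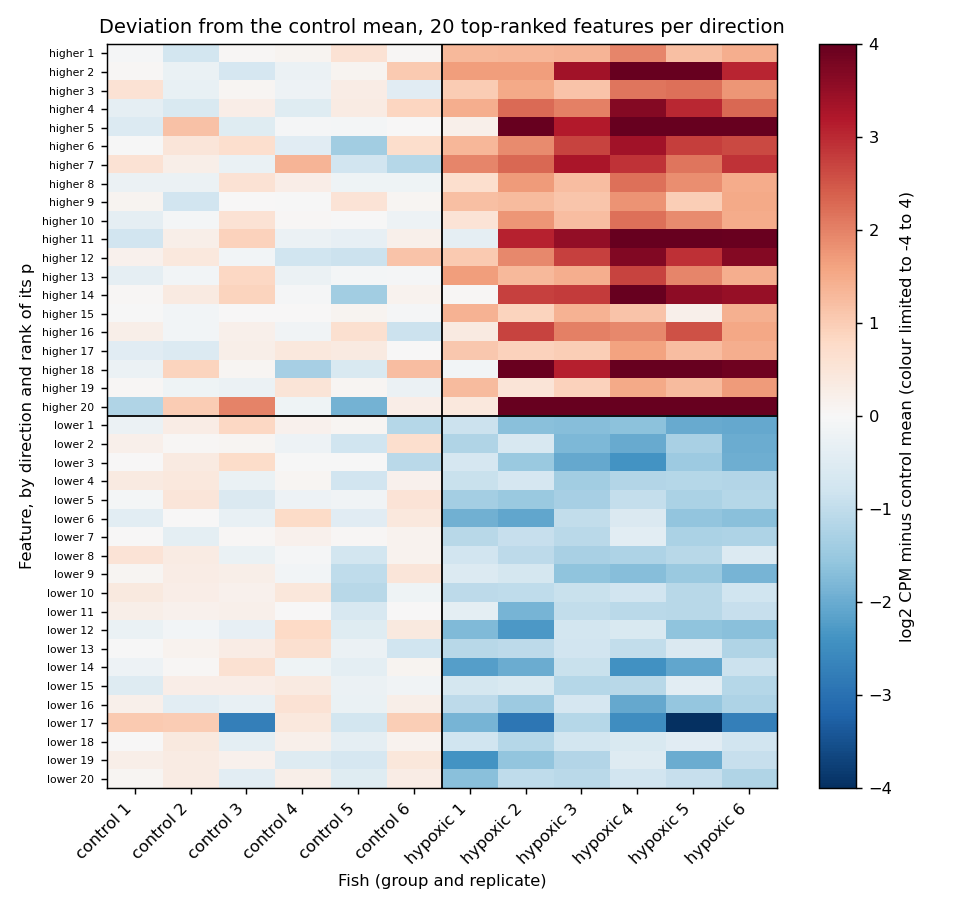
Colour gives log2 CPM minus the control mean for the 20 higher and 20 lower features of smallest p (rows) in each acute fish (columns), limited to 4 log2 units either way. Hypoxic replicate 1 does not exceed every control in 8 of the higher rows, where it lies -0.35 to 1.04 log2 units from the control mean, and it lies below every control in 14 of the lower rows.

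Some ranked features moved almost as a single one. After group means were removed, the higher features of ranks 8 and 10 had a Pearson r of 0.97 over the 12 fish, and the lower features of ranks 6 and 12 one of 0.98. By their IDs, the first pair carried different cluster numbers, and the second pair shared a cluster number but not a component. Of the 190 pairs among the 20 higher features, 6 had an r over 0.9, and the median was 0.35. Among the 20 lower features 1 pair did, and the median was 0.11. These r are descriptions over 12 fish that share libraries and scaling. Whether such pairs are parts or copies of the same gene, between which reads were divided, cannot be read from the table. Over all tested features, 9015 components held exactly 2, and in 71.7% of them both had the same direction. Summed per component, 0 of 45552 passed with edgeR (3107 at an unadjusted p under 0.05).

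Full separation of the groups was rare. In 124 features (0.215%) all 6 hypoxic fish lay above all 6 controls, and in 85 (0.147%) all lay below. Library totals alone gave 201 and 13. Among so many features some separate by chance, and how many was not tested. Features that would have separated but for a single fish were counted for each fish. In 498 of the 57675 features hypoxic replicate 1 was the only fish that prevented hypoxic fish from lying above controls. For each of the other 11 fish this number was 35 to 131. In the other direction hypoxic replicate 1 was the exception in 182 features, control replicate 5 in 183, and the other 10 fish in 40 to 126.

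Features found in 1 group alone were few and at low counts. At least 1 count in all hypoxic fish and 0 in all controls was found for 25 features, 0.00684% of the 365479 with any count, and the reverse for 3 (0.000821%). None of these had enough counts to be tested, and the largest summed 162 counts over the 6 hypoxic fish. With at least 10 counts in each fish of a group, 0 features were found in either direction.

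Each fish was then placed on features chosen without it. The edgeR fit was repeated on the other 11 fish, the 100 higher and 100 lower features of smallest p were taken, and the score of the fish left out was its mean log2 deviation from the remaining controls over the higher features minus that over the lower ones. Hypoxic replicates 2 to 6 scored 2.25 to 2.79 and the 6 controls 0.608 to 1.20, so these did not overlap. Scores in both groups were pushed upward by construction, because the controls on which the features were centred had helped to choose them. Hypoxic replicate 1 scored 0.015, below every control. It lay above the control mean in 52 of its 100 higher features and below it in 59 of its 100 lower ones. Hypoxic replicates 2 to 6 did so in 88 to 100 and in 83 to 93. The 6 controls did so in 55 to 80 and in 51 to 98. Mean deviations over the higher features were 1.67 to 2.20 in hypoxic replicates 2 to 6 and 0.068 to 0.71 in controls. Over the lower features they were -1.01 to -0.57 and -1.12 to -0.34, so the groups overlapped there. The mean score was 2.12 ± 1.05 in hypoxic fish and 0.912 ± 0.237 in controls (SD, n = 6). The scores share fish in their fits, so no test was made.

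The 110 calls made without hypoxic replicate 1 come from the same fit as its held-out features and are not a separate measure. Of the 107 that were also tested in the 12 libraries, this fish lay beyond all controls in the called direction in 18. Hypoxic replicates 2 to 6, on which the calls rest, did so in 106 or 107.

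**Figure D4:**
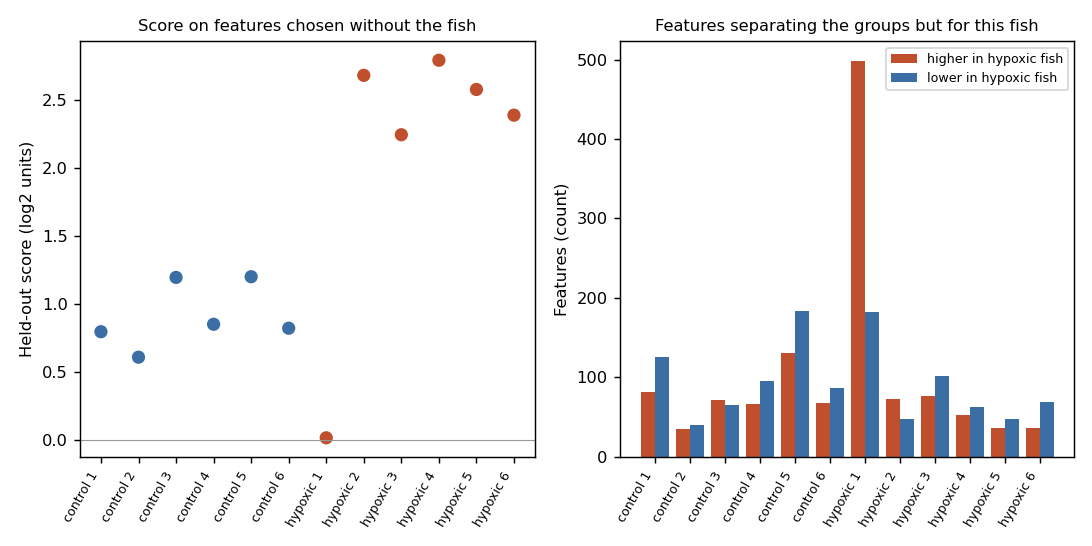
Left, held-out score of each fish in log2 units on features chosen from the other 11 fish; right, number of features in which that fish alone prevents a full separation of the groups, higher (orange) or lower (blue) in hypoxic fish. Hypoxic replicate 1 has the lowest score, 0.015, and the highest count, 498.

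Hypoxic replicate 1 was also the fish least like the rest. Over the 2000 most variable features its distance from the mean of its group was 128, whereas hypoxic replicates 2 to 6 lay at 72.0 to 86.7 and controls at 76.1 to 101.5. Its nearest fish was control replicate 5, and its mean Spearman correlation was 0.862 with its own group and 0.879 with controls. A higher correlation with the other group was not particular to it. Hypoxic replicate 4 had 0.9116 with its own group and 0.9128 with controls, and control replicate 5 had 0.9109 and 0.9153 with hypoxic fish. It held the highest value of the 12 fish in 18.03% of tested features, against 4.23% to 11.7% for the others. Its level was over 2 log2 units below the median of the other 11 fish in 2636 features and above it by as much in 753; the other fish had 314 to 1131 and 189 to 434. Its 10 most abundant features took 10.7% of counts, the lowest share of the 12, where the others had 14.5% to 30.9%. The part of this lower share, of the fish itself or of its handling in these values was not tested.

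Which group varied more depended on the fish included. The variance of log2 CPM was larger in hypoxic fish than in controls in 52.6% of features with all 6 hypoxic fish and in 37.0% with replicates 2 to 6. Distance from the group mean differed by 1.40 with all fish (permutation p 0.937, n = 6). Without hypoxic replicate 1 it differed by -7.00 (permutation p 0.0671). That fish was singled out on these same data and had the largest distance, so the 37.0% and the p of 0.0671 are descriptions. The distances were not recomputed for each division of the fish, so both p are approximate. The difference was also below 0, at -2.72 to -0.73, when control replicate 1, 2, 3, 4 or 6 was left out. It was 3.37 to 6.08 when any other single fish was left out. Each distance is taken to the mean of the other fish of the group. With 1 fish fewer that mean is less settled, which by itself lengthens the distances of that group. The part of this in these shifts was not tested.

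Taken over the 2000 most variable features, the division into hypoxic and control fish held 10.2% of the variance (exact permutation p 0.281 over all divisions of the fish, n = 6). Without hypoxic replicate 1 it held 13.3% (exact permutation p 0.0498). That fish was singled out on these same data, so this p is a description. Leaving out any other single fish gave exact permutation p of 0.132 to 0.416. The nearest fish was of the same group for 4 of 6 controls and 5 of 6 hypoxic fish. The first principal component, with 28.5% of the variance, ran from most fish to control replicate 5 (51.7) and hypoxic replicate 1 (101.4), and did not differ detectably between groups (exact permutation p 0.766). The third, with 11.6%, did: hypoxic fish averaged 21.1 ± 13.3 and controls -21.1 ± 19.1 (SD, n = 6; exact permutation p 0.00433, adjusted p 0.0173 over 4 components). Hypoxic replicates 2 to 6 scored 20.5 to 33.2, above all controls, and hypoxic replicate 1 scored -4.31, within the control range of -44.9 to -0.40. The component that differed changed with the features used, and the sign of a component is arbitrary. With the 500 most variable features the difference on the third component was 14.05 (exact permutation p 0.167). There the second differed by -28.79 (exact permutation p 0.00216, the smallest that these divisions give). With all tested features none of the 4 components differed at an exact permutation p of 0.05 (p 0.920, 0.0714, 0.132 and 0.623 for the first to the fourth).

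**Figure D5:**
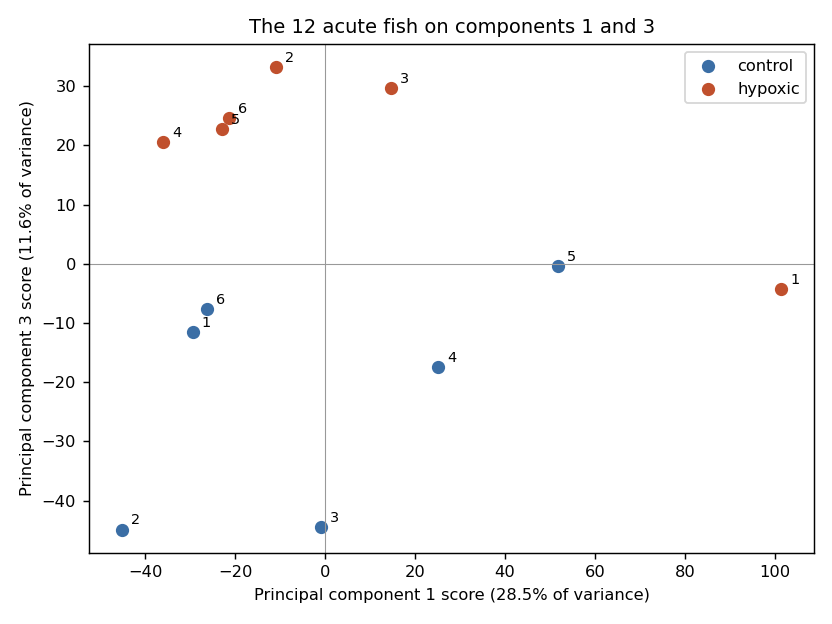
Scores of the 12 acute fish on principal components 1 and 3 of the 2000 most variable features, with the replicate number beside each point. Hypoxic replicates 2 to 6 lie above all controls on component 3, from 20.5 to 33.2, and hypoxic replicate 1 lies at the far end of component 1, at 101.4.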

How the data were processed

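Per the file headers, the deposited table holds estimated counts per assembly feature for 24 libraries, not scaled between them; Trimmomatic, RSEM and kallisto are named in the submitters' processing notes, while those sources give no version, assembly setting or annotation. The feature IDs have the form given by the Trinity assembler. Estimated counts were rounded to whole numbers. The 12 acute libraries were fitted alone: filterByExpr of edgeR (minimum count 10, minimum total 15), TMM factors, and the edgeR 4.0.16 quasi-likelihood test (R 4.3.3) of hypoxic minus control, with Benjamini-Hochberg adjustment over all 57675 features tested and a threshold of 0.05. Library totals were 31558433 to 43603403 counts. The standard error is the log2 fold change divided by the square root of F. CPM are counts scaled to the size of TMM-scaled libraries; log2 CPM used a prior count of 2. Measures of single fish were compared by exact two-sided permutation of the difference of means over all divisions of the 12 fish into groups of 6. Distances from the group mean were not recomputed for each division, so their permutation p is approximate. Alternatives used DESeq2 1.42.0, limma 3.58.1 (voom with quality weights), other scalings, filters and spreads, sums per component, a replicate block, all 24 libraries, and each fish left out. The tests were run on simulated data with known changes, in which every hypoxic fish carried the full change. Those data cannot show which calls hold where 1 hypoxic fish differs from its group. By rule, the 2 higher and 2 lower features of smallest p are named, whether or not they pass; other features are given by rank or count. The libraries, lists and tests were chosen with earlier results of these data known. Over 30 pairs of fish within a group the chi-square per feature was 30.95 to 347.7, so no pair differed by sampling noise alone. The sources name no molecular identifiers, so counts need not be independent molecules.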

Additional observations from a re-analysis of the deposited data

Results flagged for a closer look

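Of 30 group values examined (11 measures and 4 named features, in 2 groups), 8 held a fish far from the other 5 of its group. For a single set of 6 fish, chance gives about 1 in 20. The measures share fish and counts, and the features were chosen on this contrast. The 8 flags are thus not independent, and their number is not set against that rate. For 5 measures and 1 feature the flagged fish was hypoxic replicate 1. Its distance from the group mean was 128, the next hypoxic fish being at 86.7. Its score was 101.4 on principal component 1 (next 14.7) and -4.31 on component 3 (next 20.5). Its held-out score was 0.015 (next 2.25), and its mean Spearman correlation with the other hypoxic fish was 0.862 (next 0.911). It had 1.81 CPM of TRINITY_DN115458_c0_g2, where the next hypoxic fish had 1.05.

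The other flags fell on other fish. Hypoxic replicate 4 had 12.3 CPM of TRINITY_DN1594_c2_g2, with the next hypoxic fish at 8.62. Control replicate 6 had 0.8295 CPM of TRINITY_DN6213_c0_g2, on 23 counts, with the next control at 0.405.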

How the results depend on the processing

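With edgeR the count of 0 calls held under the newer quasi-likelihood method, a robust spread, DESeq2 size factors, upper-quartile factors, the stricter filter, sums per component, an adjusted p of 0.1, the replicate block and the loss of any fish other than hypoxic replicate 1. Higher and lower calls became 155 and 39 with DESeq2, 32 and 2 with voom, 33 and 0 with library totals alone, 994 and 565 with no filter (906 of these 1559 passed the filter), and 14 and 0 with all 24 libraries; leaving out fish they ranged from 0 to 100 and from 0 to 10, both highest without hypoxic replicate 1. At an unadjusted p under 0.05 the 2027 higher features became 3402 with voom, 3281 with library totals alone, 11472 with no filter and 1326 with a replicate block, and 1495 to 3786 leaving out fish. The 1854 lower ones became 328, 20627 and 1203 with those last 3, 913 with all 24 libraries, and 1298 to 2787 leaving out fish. The replicate numbers were not taken to pair the fish: same-numbered fish had correlations of -0.257 to 0.242, over 0.1 in 2 of 6 pairs, and 1 control and 2 hypoxic fish correlated best with their own number. Intervals within 1.5-fold were found for 10263 features, and leaving out fish gave 30887 to 33092 within 2-fold. Separated features became 201 higher and 13 lower with library totals alone. The 4 named features were chosen on this contrast and the 23 fits share its fish, so their kept direction is not separate support. Their log2 fold changes were 1.29 to 1.55 for TRINITY_DN1594_c2_g2, 3.14 to 3.82 for TRINITY_DN6213_c0_g2, -1.98 to -1.52 for TRINITY_DN115458_c0_g2 and -1.70 to -1.18 for TRINITY_DN23781_c1_g1. Group share of variance was 10.07% to 13.3% leaving out fish. The difference in distance from the group mean ran from -7.00 to 6.08 leaving out fish, which by itself lengthens the distances of the group left smaller. The component on which the groups differed changed with the features used, and the sign of a component is arbitrary. With 500 features the difference was -28.79 on component 2 and 14.05 on component 3. With all tested features it was -6.12 on component 1, -63.54 on component 2 and 45.6 on component 3. The difference of mean held-out scores, 1.205, was 0.889 to 1.57 with 50 or 200 features or other size factors. For these changes the cause was not tested. Intervals were widest for features under 1 CPM, where 27.8% lay within 2-fold; the biological coefficient of variation was also highest there (median 0.445), and the part of depth was not tested.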
